A study of Mus musculus with 30 samples.

Results

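The enzymes of serine synthesis and of the folate one-carbon pathway are described here as 10 genes. They were chosen by symbol, with earlier results of these data known. Phgdh, Psat1 and Psph belong to serine synthesis. Shmt2, Mthfd2, Mthfd1l and Aldh1l2 belong to the mitochondrial folate pathway, and Shmt1, Mthfd1 and Aldh1l1 to the cytosolic one. These members are 10 of the 29861 genes in the deposited table. All 10 were among the 13644 genes that were tested, for which 3 or more libraries had to reach 1 TPM. TPM is a transcript abundance corrected for transcript length and given relative to all transcripts of a library. The cells were CCG-HTA-1, primary fibroblasts from the tails of UMHet3 mice, grown at passage 4 in high-glucose medium lacking pyruvate and in ambient oxygen. The cells received a compound or the solvent DMSO 24 hours after plating, and RNA was taken 48 hours after that. DMSO had 6 libraries. Antimycin A, Dihydrorotenone, Diphenyleneiodonium Cl, Cardamonin, BerberineA, Clofilium tosylate, AEG 3482 and Podofilox had 3 each, which makes 30 libraries in 9 groups. The donor mice were 5 to 8 weeks old, except that the label of Dihydrorotenone replicate 1 gives 8 to 11 weeks. All groups share the cell line, strain, medium and passage, and by the labels they otherwise differ in the agent, whose dose is not given there.

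Cells make serine from the glycolytic intermediate 3-phosphoglycerate through PHGDH, PSAT1 and PSPH in turn. Serine hydroxymethyltransferase moves a carbon from serine onto tetrahydrofolate and leaves glycine, with SHMT2 acting in mitochondria and SHMT1 in the cytosol. In mitochondria MTHFD2 and MTHFD1L carry that carbon on to formate, which leaves for the cytosol, where MTHFD1 puts it back onto folate for purine and thymidylate synthesis, and ALDH1L2 and ALDH1L1 oxidise formyl-tetrahydrofolate to carbon dioxide in the mitochondria and the cytosol. Phgdh, Psat1, Shmt2 and Mthfd2 are known targets of ATF4, the transcription factor of the integrated stress response.

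The libraries held 12229 to 12700 genes at 1 TPM or more, and some groups stood apart: every Cardamonin (12229 to 12302) and AEG 3482 (12310 to 12366) library was below every DMSO library (12569 to 12700). The mitochondrial transcripts took 3.64 to 3.93% of listed TPM in Antimycin A against 4.62 to 5.38% in DMSO, and the 20 most abundant genes took 14.9 to 15.1% in AEG 3482 against 18.3 to 19.3%. The fibroblast markers were high in all 30 libraries, with Col1a1 between 289 and 1275 TPM, and the sum of the 10 listed was 6163 to 8029 TPM in Cardamonin and 14046 to 16831 TPM in DMSO. Markers of other cell types were low but not all absent. Krt5, Myod1, Plin1 and Lep were listed at 0 in every library, while from the same and other lists Krt10 held 1.02 to 2.38 TPM, Fabp4 5.59 to 32.2, Mlana 0.228 to 17.0, Tek 0.477 to 8.18 and Cd68 11.5 to 41.4. The sum of the 4 melanocyte markers was 16.1 to 18.6 TPM in Antimycin A and 1.27 to 1.83 in Cardamonin, beside 4.54 to 6.93 in DMSO. That of the 4 endothelial markers was 1.09 to 1.18 TPM in Cardamonin, 1.63 to 1.77 in AEG 3482 and 5.42 to 8.71 in DMSO. That of the 4 adipocyte markers was 5.59 to 8.16 TPM in AEG 3482 and 17.2 to 28.6 in DMSO, and that of the 5 leukocyte markers 27.8 to 44.5 in Cardamonin and 22.2 to 26.9 in DMSO. Apart from Tek, no endothelial marker exceeded 0.804 TPM in any library. Apart from Fabp4 no adipocyte marker exceeded 0.119 TPM, and apart from Mlana no melanocyte marker exceeded 2.27 TPM. The endothelial, adipocyte and melanocyte sums thus mostly follow 1 gene each and not a full set of markers. Of the leukocyte markers, Adgre1 held 1.62 to 12.1 TPM, and those other than Cd68 and Adgre1 did not exceed 1.57. The highest leukocyte sum in Cardamonin, 44.5 TPM, was mostly Cd68, at 41.4. The part of the differences between groups in the results was not tested. In these bulk samples fewer cells of a type and less RNA per cell cannot be told apart. All libraries come from 1 cell line and nothing says that they were separate cultures, so p-values measure the spread between libraries. Library numbers run consecutively within each group, so a library batch and a treatment cannot be told apart.

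Across the 8 comparisons with DMSO, a member rose in 30 of the 80 tests and fell in 10 at a limma adjusted p under 0.05, on the log2(TPM + 1) scale that is used for every fold change here. Over all tested genes and the same 8 comparisons, 38.4% of tests passed, 21.1% higher and 17.3% lower. The mitochondrial folate enzymes rose in 17 of their 32 tests and fell in 2. The serine synthesis enzymes rose in 11 of 24 and fell in 4. The cytosolic folate enzymes rose in 2 of 24, fell in 4 and did not pass in 18. Summed over its members, the mitochondrial set held 34.0 to 45.7 TPM in the DMSO libraries, 125 to 133 TPM in Cardamonin and 101 to 105 TPM in Podofilox. The cytosolic set held 32.5 to 36.4 TPM in DMSO and had means of 26.9 ± 1.68 TPM in Cardamonin, 25.7 ± 3.13 in AEG 3482 and 22.0 ± 1.39 in Podofilox (SD, n = 3). In Cardamonin the lower sum came from Aldh1l1 alone, with a mean of 6.50 TPM against 15.4 in DMSO, while the means of Shmt1 (6.22 against 4.86) and Mthfd1 (14.2 against 13.9) were not lower. The serine synthesis set had a mean of 36.4 ± 1.04 TPM in DMSO (SD, n = 6), 85.9 ± 3.63 in Cardamonin and 66.9 ± 3.37 in Podofilox (SD, n = 3). These sums were not tested. The grid of fold changes shows the 3 blocks, and the plot of TPM by library shows the levels behind them.

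**Figure D1:**
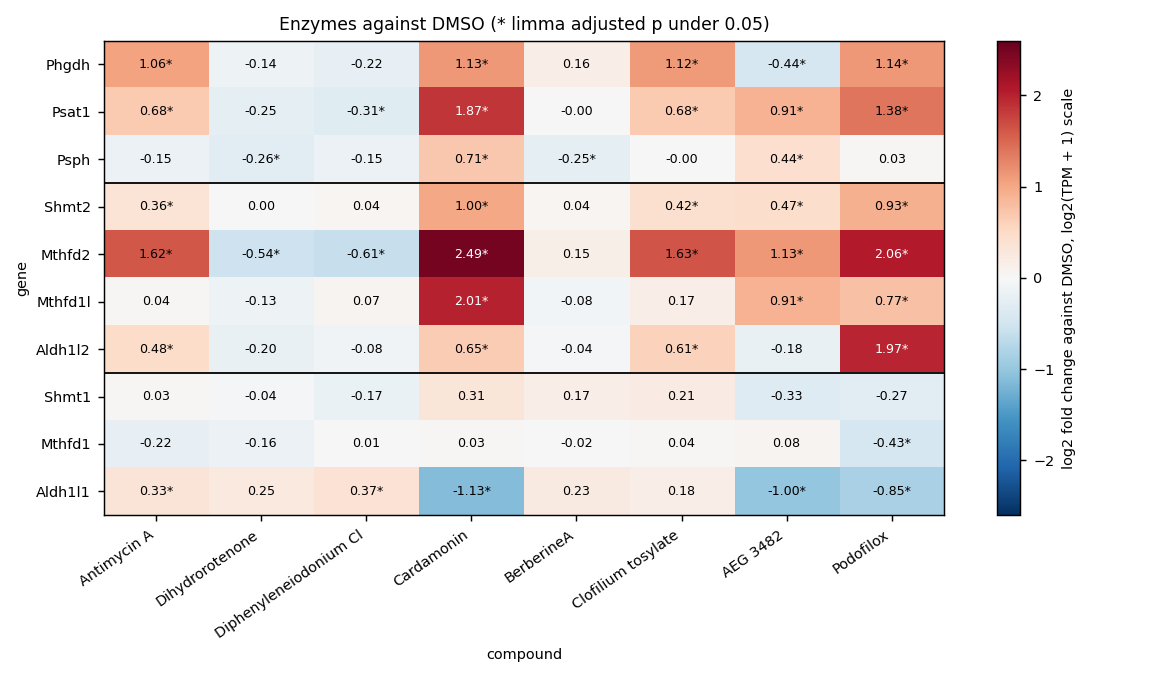
Log2 fold change of each of the 10 enzymes (rows, in blocks of serine synthesis, mitochondrial folate and cytosolic folate) in each compound against DMSO (columns), with red for higher and blue for lower, and * for a limma adjusted p under 0.05. The largest rise is Mthfd2 in Cardamonin at 2.49, and the deepest fall is Aldh1l1 in Cardamonin at -1.13.

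Read against all tested genes, the number of members past the threshold differed by compound. Antimycin A changed 6 of the 10, all higher, where 37.3% of tested genes passed in either direction and 21.8% were higher. Clofilium tosylate changed 5, all higher, where 23.4% passed and 10.9% were higher. Podofilox changed 8, with 6 higher and 2 lower, where 46.2% passed (26.2% higher). For Cardamonin and AEG 3482 the share among all genes was already large: Cardamonin changed 8 members (7 higher, 1 lower) where 70.3% of genes passed (37.3% higher, 33.0% lower), and AEG 3482 changed 7 (5 higher, 2 lower) where 68.1% passed (41.3% higher, 26.8% lower). The counts were small in the other 3 compounds and near the share over all genes. Diphenyleneiodonium Cl changed 3 members (1 higher, 2 lower), where 25.7% of genes passed (11.7% lower). Dihydrorotenone changed 2, both lower (14.4% of genes passed, 9.43% lower), and BerberineA 1, which was lower (21.7% of genes passed, 9.16% lower). The median log2 fold change over the 10 members was 0.86 in Cardamonin and 0.85 in Podofilox, beside medians of 0.03 and 0.04 over all tested genes. It was 0.26 in AEG 3482, 0.32 in Clofilium tosylate and 0.34 in Antimycin A, beside 0.10, 0.00 and 0.03 over all tested genes. All 3 libraries lay outside the DMSO range for 61.6% of tested genes in Cardamonin, 58.9% in AEG 3482 and 38.5% in Podofilox. The share was 20.8% in Clofilium tosylate, and that of Antimycin A lay between those of Clofilium tosylate and Podofilox. Among the 10 members the counts were 8 in Cardamonin, 7 in AEG 3482, 8 in Podofilox and 5 each in Clofilium tosylate and Antimycin A.

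**Figure D2:**
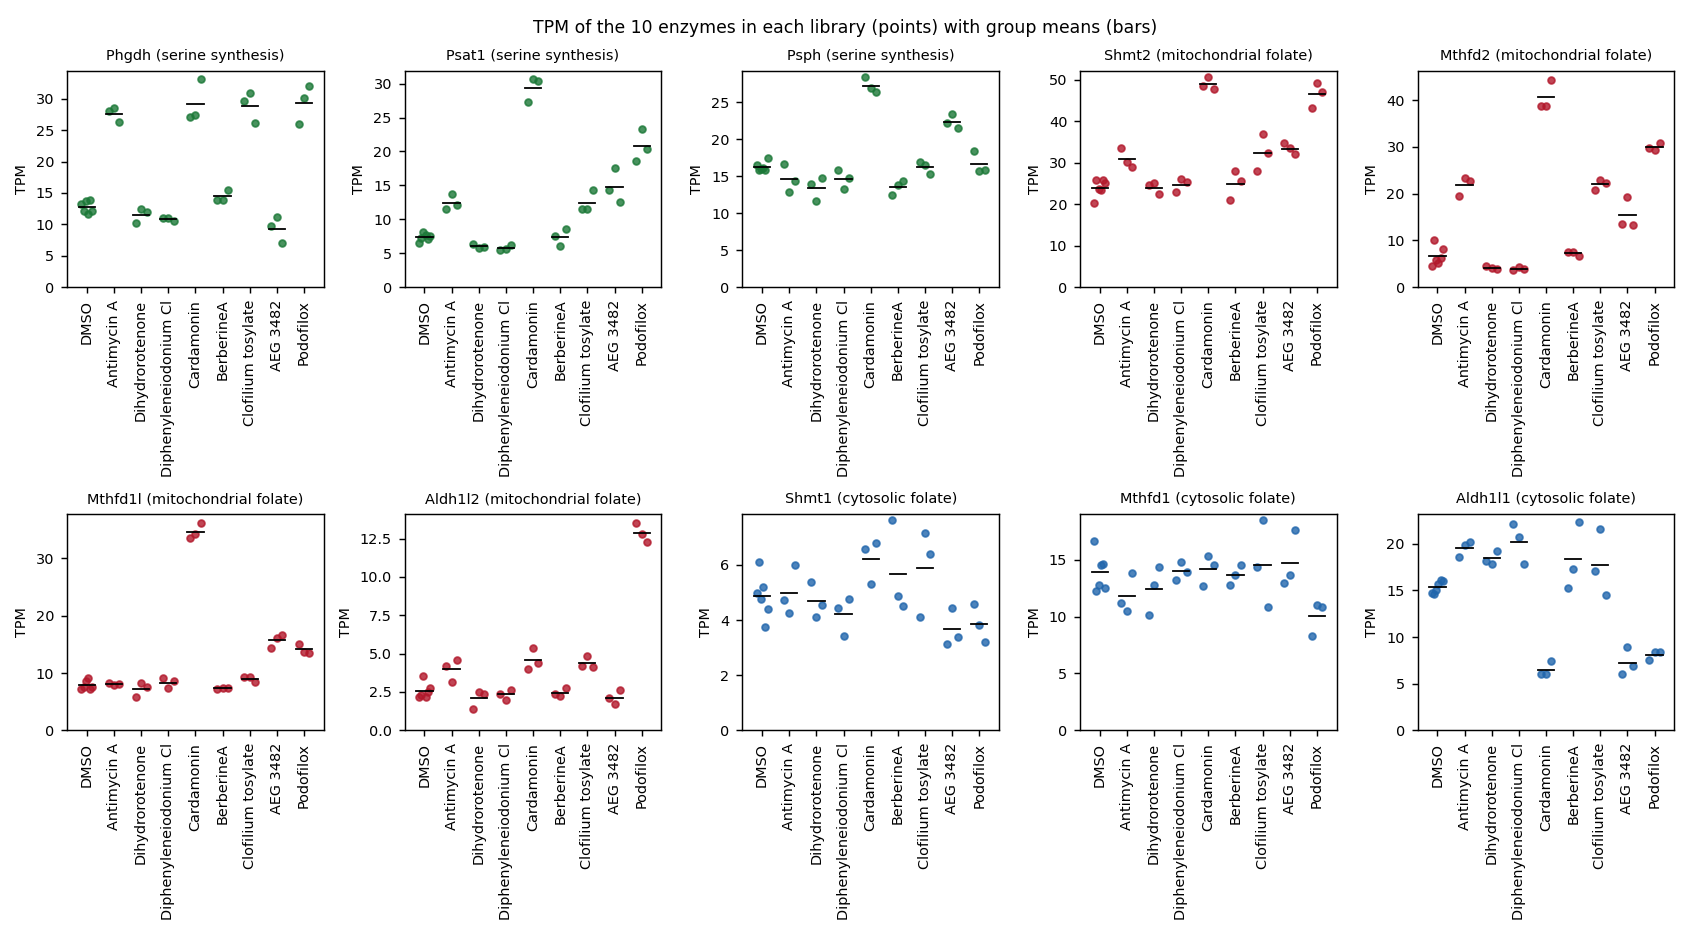
TPM of each enzyme (1 panel per gene, linear axis from 0) in each library (points) of the 9 groups, with the group mean as a bar. Mthfd2 runs from 3.59 TPM in a Diphenyleneiodonium Cl library to 44.3 TPM in a Cardamonin library, while Mthfd1 stays between 8.33 and 18.5 TPM.

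The promoters of 4 members are printed to set genes that rose together in several compounds (Phgdh, Psat1 and Mthfd2) beside Mthfd1, which rose in none. All 4 windows printed hold CCAAT. Shmt2, which rose in the same 5 compounds as Psat1 and Mthfd2, is not printed and holds none of the motifs marked. The printed stretches are RefSeq sequences of GRCm38.p6, the 250 bases before the start site less any base in an exon of the gene itself, written 5′ to 3′ along the gene. Capitals mark matches on either strand to CCAAT (or ATTGG), the CCAAT box that many promoters hold, and in Phgdh also to TGACNNNGC, the core of the antioxidant response element that NRF2 binds, which is printed as its reverse complement. The Phgdh stretch is chr3:98339991-98340219 on the minus strand, that of Psat1 chr19:15925060-15925309 on the minus strand, that of Mthfd2 chr6:83317607-83317854 on the minus strand, and that of Mthfd1 chr12:76254982-76255231 on the plus strand, where it overlaps an exon of the gene Gm47525.
Phgdh: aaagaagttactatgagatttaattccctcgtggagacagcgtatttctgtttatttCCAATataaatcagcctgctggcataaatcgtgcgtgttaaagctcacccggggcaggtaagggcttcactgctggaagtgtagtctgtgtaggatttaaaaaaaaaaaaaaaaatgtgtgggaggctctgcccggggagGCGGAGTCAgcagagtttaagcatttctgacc
Psat1: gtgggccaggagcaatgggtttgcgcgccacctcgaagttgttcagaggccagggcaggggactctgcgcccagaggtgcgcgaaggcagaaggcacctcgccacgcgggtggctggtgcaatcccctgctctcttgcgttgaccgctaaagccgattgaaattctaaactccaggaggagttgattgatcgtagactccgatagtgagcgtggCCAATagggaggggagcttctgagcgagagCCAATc
Mthfd2: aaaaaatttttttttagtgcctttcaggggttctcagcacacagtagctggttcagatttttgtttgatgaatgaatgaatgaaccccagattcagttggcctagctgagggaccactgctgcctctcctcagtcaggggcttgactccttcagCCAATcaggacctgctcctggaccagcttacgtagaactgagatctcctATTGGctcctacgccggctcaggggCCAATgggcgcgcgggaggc
Mthfd1: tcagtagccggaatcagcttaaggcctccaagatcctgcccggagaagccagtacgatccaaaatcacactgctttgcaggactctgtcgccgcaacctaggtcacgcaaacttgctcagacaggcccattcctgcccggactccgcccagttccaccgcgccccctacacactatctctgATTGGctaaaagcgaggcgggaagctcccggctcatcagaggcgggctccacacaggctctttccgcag

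A promoter entry was found for 9 of the 10 members, in 10 windows, and not for Aldh1l2. CCAAT was present in windows of 7 of the 9 members, where 33.8% of 32851 promoter windows of the same length hold it, and this motif was picked after the sequences were read. Mthfd2 has 3 matches, and 2.79% of all windows have at least 3. Shmt2 and Mthfd1l have 0 matches, and so does a second RefSeq window of Psat1 (chr19:15924623-15924872). A further match in the Phgdh window runs into its own exon, so only its first bases, the final cc of the stretch, are printed, unmarked. TGACNNNGC was matched in Phgdh alone of the 9 and in 10.2% of all windows. TGATGNAA, the element that ATF4 binds together with C/EBP proteins, was matched in none of the 9 and in 3.45% of all windows. These matches describe letters in a short window and not binding.

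Phgdh (chr3:98313170-98339990, minus strand) encodes the dehydrogenase that opens serine synthesis. In DMSO it lay at 11.7 to 13.9 TPM with a median of 12.7. It was at 28.1, 28.6 and 26.3 TPM in Antimycin A, at 27.1, 27.4 and 33.2 in Cardamonin, at 29.7, 30.9 and 26.2 in Clofilium tosylate and at 26.0, 30.2 and 32.0 in Podofilox. No library of these 4 groups overlapped DMSO. The fold changes were 2.08 (limma adjusted p = 3.19e-09), 2.18 (1.00e-10), 2.17 (6.38e-09) and 2.20 (4.66e-10) in that order. The 4 group means did not separate from each other, and neighbours in their order gave limma adjusted p-values of 0.837 to 0.95. AEG 3482 went the other way, at 9.68, 11.1 and 7.09 TPM, all below DMSO, with a log2 change of -0.44 ± 0.10 (SE, limma adjusted p = 0.000271). Diphenyleneiodonium Cl, at 11.0, 11.0 and 10.5 TPM, was also below every DMSO library but did not pass (-0.22, limma adjusted p = 0.0979). Dihydrorotenone at 10.2, 12.5 and 12.0 TPM and BerberineA at 13.9, 13.9 and 15.5 TPM did not pass (limma adjusted p = 0.38 and 0.254). Of the transcript 31-mers of Phgdh, 55.9% also occur in other genes, mostly processed pseudogenes such as Gm7901, so reads could be split among them. Those listed summed to 0.667 to 4.55 TPM per library, and adding them to Phgdh left its 5 calls past the threshold with log2 values of 1.15 in Cardamonin, 1.14 in Podofilox, 1.13 in Clofilium tosylate, 1.05 in Antimycin A and -0.39 in AEG 3482.

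Psat1 (chr19:15904678-15947337, minus strand), the aminotransferase of the next step, rose in 5 compounds and over a wider range. DMSO libraries held 6.43 to 8.10 TPM with a median of 7.37. Cardamonin was highest at 27.3, 30.7 and 30.3 TPM, followed by Podofilox at 18.6, 23.4 and 20.4 and AEG 3482 at 14.3, 17.5 and 12.6. Clofilium tosylate gave 11.4, 11.5 and 14.4 TPM and Antimycin A 11.5, 13.7 and 12.1. None of these 15 libraries overlapped DMSO. Over all tested genes, the share with every library above the DMSO range ran from 9.56% in Clofilium tosylate to 36.1% in AEG 3482 in these 5 compounds. The rises were 3.65-fold in Cardamonin, 2.61-fold in Podofilox, 1.88-fold in AEG 3482, 1.61-fold in Clofilium tosylate and 1.60-fold in Antimycin A, with limma adjusted p-values from 6.55e-15 to 1.28e-05. The order Cardamonin, Podofilox, AEG 3482 separated at both steps (limma adjusted p = 0.000728 and 0.000944), and AEG 3482 did not separate from Clofilium tosylate (0.0811). Diphenyleneiodonium Cl, at 5.53, 5.54 and 6.16 TPM, lay below DMSO with a log2 change of -0.31 ± 0.10 (SE, limma adjusted p = 0.0242). That call was lost without its replicate 1 (limma adjusted p = 0.0899) and without its replicate 2 (0.0926). Dihydrorotenone, at 6.34, 5.70 and 5.97 TPM, was also below every DMSO library but did not pass (-0.25, limma adjusted p = 0.093), and BerberineA at 5.99 to 8.63 TPM overlapped DMSO.

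Psph (chr5:129765558-129787449, minus strand), the phosphatase that releases serine, moved least of the 3 synthesis enzymes. It was at 15.8 to 17.4 TPM in DMSO with a median of 16.0. Cardamonin stood at 28.4, 26.9 and 26.3 TPM and AEG 3482 at 22.1, 23.4 and 21.5, all above DMSO. The rises were 1.63-fold (limma adjusted p = 2.90e-09) and 1.35-fold (8.82e-06). Psph did not pass in Antimycin A, Clofilium tosylate or Podofilox, the other 3 compounds in which Phgdh and Psat1 both rose, with log2 fold changes of -0.15, 0.00 and 0.03. Small falls passed in Dihydrorotenone, with 13.9, 11.6 and 14.7 TPM (-0.26, limma adjusted p = 0.0151), and in BerberineA, with 12.5, 13.8 and 14.4 TPM (-0.25, 0.0144). The first was lost without Dihydrorotenone replicate 2 (limma adjusted p = 0.169) and the second without BerberineA replicate 1 (0.107).

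Mthfd2 (chr6:83305691-83325908, minus strand), the mitochondrial methylene-tetrahydrofolate dehydrogenase and cyclohydrolase, had the widest range of the 10 members, with group means spanning 3.10 on the log2 scale. DMSO libraries were at 4.57 to 10.1 TPM with a median of 5.95, and replicate 2 was the highest of them. Cardamonin reached 38.9, 38.9 and 44.3 TPM, and Podofilox 29.8, 29.4 and 30.8. Clofilium tosylate gave 20.7, 22.9 and 22.3 TPM, Antimycin A 19.5, 23.3 and 22.6, and AEG 3482 13.5, 19.3 and 13.3. All 15 libraries lay above the highest DMSO library. Fold changes were 5.62 in Cardamonin (limma adjusted p = 3.67e-14), 4.18 in Podofilox (1.11e-11), 3.10 in Clofilium tosylate (8.48e-09), 3.07 in Antimycin A (1.85e-09) and 2.18 in AEG 3482 (1.60e-07). Mthfd2 was lower in 2 compounds, Dihydrorotenone at 4.41, 4.06 and 3.82 TPM and Diphenyleneiodonium Cl at 3.59, 4.25 and 3.78. The log2 fold changes were -0.54 ± 0.14 (SE, limma adjusted p = 0.0121) and -0.61 ± 0.14 (SE, 0.0024), and the highest of these 6 libraries was just under the lowest DMSO library. Both were lost when the compound and DMSO were fitted alone (limma adjusted p = 0.129 and 0.0541), and the first also without Dihydrorotenone replicate 3 (0.0558). BerberineA at 6.60 to 7.58 TPM fell inside the DMSO range.

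Shmt2 (chr10:127517123-127522444, minus strand), the mitochondrial serine hydroxymethyltransferase, had the highest DMSO level of the 10 members per transcript length, at 20.2 to 25.9 TPM with a median of 24.4. It stood at 48.5, 50.7 and 47.8 TPM in Cardamonin and 43.1, 49.3 and 46.9 in Podofilox. Smaller rises were seen in AEG 3482 (34.6, 33.5 and 32.1 TPM), Clofilium tosylate (28.02, 37.0 and 32.2) and Antimycin A (33.6, 30.1 and 29.0). Each of these 15 libraries was above DMSO. The fold changes were 2.01 in Cardamonin, 1.90 in Podofilox, 1.38 in AEG 3482, 1.33 in Clofilium tosylate and 1.28 in Antimycin A, with limma adjusted p-values from 7.19e-11 to 0.00159. Cardamonin and Podofilox did not separate from each other (limma adjusted p = 0.522). Neither did AEG 3482 from Clofilium tosylate (0.676) or Clofilium tosylate from Antimycin A (0.808). Podofilox was above AEG 3482 (limma adjusted p = 0.000226) and Antimycin A above BerberineA (0.0452). Shmt2 stayed at 20.9 to 27.97 TPM in Dihydrorotenone, Diphenyleneiodonium Cl and BerberineA, with log2 fold changes of 0.00 to 0.04.

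Mthfd1l (chr10:3973118-4167081, plus strand), the mitochondrial formyl-tetrahydrofolate synthetase that releases formate, rose in 3 compounds. In DMSO it was at 7.16 to 9.10 TPM with a median of 7.62. Cardamonin had 33.5, 34.3 and 36.3 TPM, AEG 3482 14.3, 16.0 and 16.7, and Podofilox 15.1, 13.7 and 13.5. Cardamonin stood apart from all other groups, and AEG 3482 and Podofilox lay together above DMSO. The rises were 4.03-fold (limma adjusted p = 1.86e-17), 1.88-fold (2.32e-10) and 1.70-fold (1.61e-08). In Antimycin A, at 8.33, 7.87 and 8.08 TPM, and in Clofilium tosylate, at 9.28, 9.26 and 8.38 TPM, Mthfd1l overlapped DMSO and did not pass (limma adjusted p = 0.76 and 0.135), while Mthfd2, the enzyme before it, rose in both. The other 3 compounds had 5.83 to 9.05 TPM and did not pass.

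Aldh1l2 (chr10:83487450-83534140, minus strand), the mitochondrial formyl-tetrahydrofolate dehydrogenase, had the lowest DMSO level of the 10, at 2.14 to 3.51 TPM with a median of 2.39. Podofilox was set apart at 13.5, 12.8 and 12.3 TPM, a rise of 3.93-fold (limma adjusted p = 3.05e-12). Cardamonin gave 3.98, 5.38 and 4.37 TPM, Clofilium tosylate 4.18, 4.85 and 4.14, and Antimycin A 4.18, 3.16 and 4.56. These 3 passed with rises of 1.57-fold (limma adjusted p = 6.98e-05), 1.52-fold (0.000944) and 1.40-fold (0.00409), but Antimycin A replicate 2 lay inside the DMSO range. AEG 3482, in which the other 3 mitochondrial enzymes rose, held 2.09, 1.70 and 2.60 TPM with a log2 change of -0.18 (limma adjusted p = 0.207). Dihydrorotenone, Diphenyleneiodonium Cl and BerberineA had 1.42 to 2.76 TPM and did not pass.

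Of the cytosolic enzymes, Shmt1 (chr11:60788104-60811718, minus strand) passed in 0 of 8 compounds by limma. It lay at 3.74 to 6.11 TPM in DMSO with a median of 4.87, and at 3.14 to 7.63 TPM over the 24 treated libraries, overlapping DMSO in every group. The unadjusted limma p was under 0.05 in 1 compound, AEG 3482, at 3.14, 4.43 and 3.40 TPM (log2 fold change -0.33, adjusted p = 0.0654). It passed under 5 other settings, and its limma adjusted p ranged from 0.0253 to 0.237 over all its alternatives. The spread of Shmt1 was wide, with an SE of 0.16 against 0.08 for Shmt2, and the 95% interval of the AEG 3482 value ran from -0.65 to -0.01.

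Mthfd1 (chr12:76255298-76319803, plus strand), the trifunctional cytosolic enzyme, moved little. DMSO had 12.2 to 16.7 TPM with a median of 13.7. In 7 compounds it did not pass, with log2 fold changes of -0.22 to 0.08. Podofilox was lower at 8.33, 11.0 and 10.9 TPM, all below DMSO, with a log2 change of -0.43 ± 0.13 (SE, limma adjusted p = 0.00927). Without Podofilox replicate 1 it was -0.31 and no longer passed (limma adjusted p = 0.10).

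Aldh1l1 (chr6:90486427-90600203, plus strand), the cytosolic formyl-tetrahydrofolate dehydrogenase, fell in the 3 compounds in which Mthfd1l rose. DMSO held 14.6 to 16.1 TPM with a median of 15.3. Cardamonin stood at 6.05, 6.05 and 7.39 TPM, AEG 3482 at 6.01, 8.91 and 6.88, and Podofilox at 7.57, 8.36 and 8.38. None of these 9 libraries reached the lowest DMSO library. The TPM + 1 level was 2.19-fold lower in Cardamonin (limma adjusted p = 1.02e-09), 2.0-fold lower in AEG 3482 (1.21e-08) and 1.80-fold lower in Podofilox (5.42e-07). Podofilox did not separate from AEG 3482 (limma adjusted p = 0.306), nor AEG 3482 from Cardamonin (0.401). Aldh1l1 was higher in Antimycin A, at 18.6, 19.9 and 20.2 TPM (log2 fold change 0.33, limma adjusted p = 0.0196), and in Diphenyleneiodonium Cl, at 22.1, 20.8 and 17.8 TPM (0.37, 0.013). The first was lost without Antimycin A replicate 2 (limma adjusted p = 0.0627) or 3 (0.0729), and the second without Diphenyleneiodonium Cl replicate 1 (0.0878) or 2 (0.0573). Dihydrorotenone at 17.9 to 19.3 TPM lay above DMSO and did not pass (limma adjusted p = 0.134).

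The mitochondrial and cytosolic enzymes of matching function were then compared within each library, as the log2 ratio of their TPM + 1. Each of 4 ratios was tested in each of 8 compounds against DMSO by a two-sided exact permutation test over the 84 ways to draw 3 of 9 libraries, whose smallest p is 0.0119, and the 32 p-values were adjusted together. The ratio moved to the mitochondrial side in 14 tests and to the cytosolic side in 2. The share over other pairs of genes was not computed, so these counts have no background beside them. Among single tested genes, 61.6% in Cardamonin, 58.9% in AEG 3482 and 38.5% in Podofilox had all 3 libraries outside the DMSO range. The tests also share the 6 DMSO libraries, and Mthfd1 serves in both the Mthfd2 and the Mthfd1l ratio. In Podofilox and Cardamonin all 4 ratios rose, and in BerberineA none passed.

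**Figure D3:**
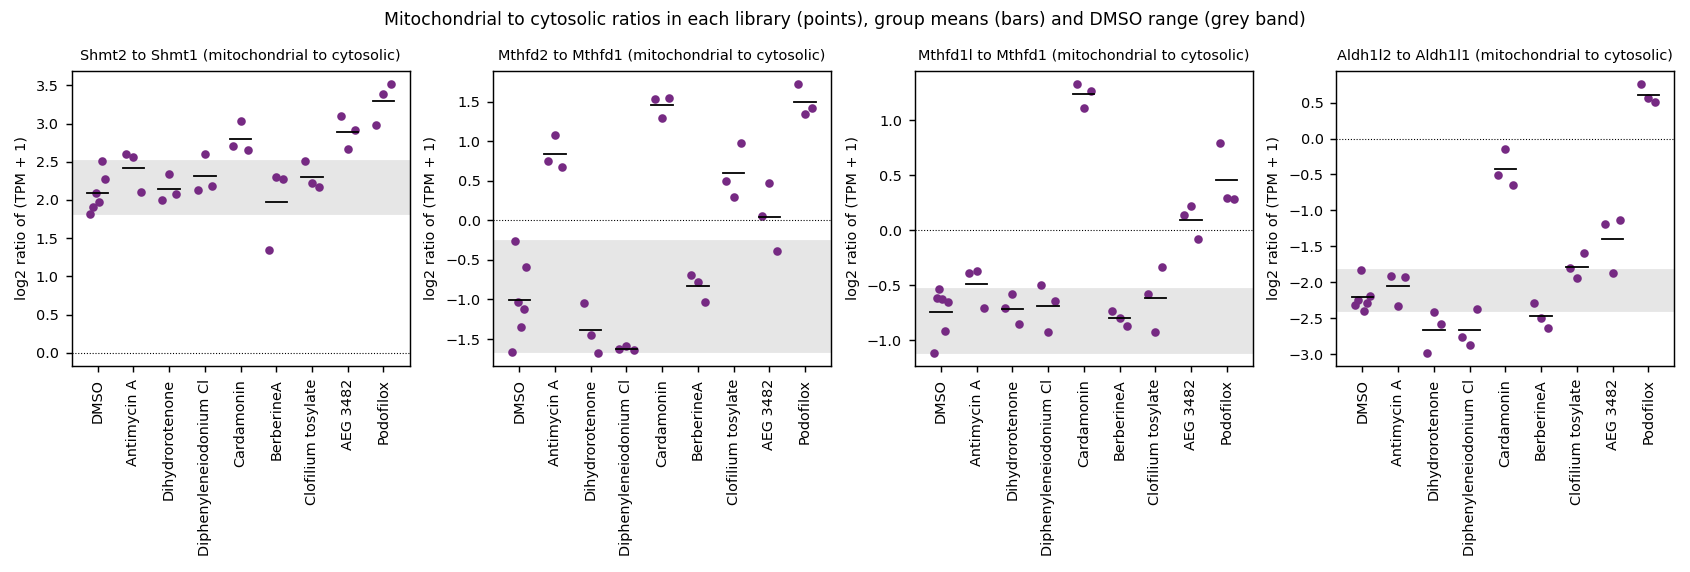
Log2 ratio of TPM + 1 of a mitochondrial to a cytosolic enzyme in each library (points) of the 9 groups, with group means as bars, the DMSO range as a grey band and equal levels as a dotted line. All Podofilox and Cardamonin libraries lie above the band in all 4 panels.

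The Mthfd2 to Mthfd1 ratio crossed equality. As a plain TPM ratio it was 0.274 to 0.822 in the DMSO libraries, and 2.68 to 3.57 in Podofilox, 2.54 to 3.05 in Cardamonin, 1.63 to 2.22 in Antimycin A and 1.24 to 2.06 in Clofilium tosylate, with no overlap. Against DMSO the log2 ratio was higher by 2.50, 2.46, 1.84 and 1.59 (adjusted exact permutation p = 0.0293 for each). In AEG 3482 it was higher by 1.05, with 1 library inside the DMSO range, and did not pass (adjusted exact permutation p = 0.0672). The Mthfd1l to Mthfd1 ratio was 0.429 to 0.668 in DMSO, 2.24 to 2.63 in Cardamonin, 1.24 to 1.82 in Podofilox and 0.945 to 1.17 in AEG 3482. These 3 were higher by 1.98, 1.20 and 0.83 on the log2 scale (adjusted exact permutation p = 0.0293 for each).

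Shmt2 exceeded Shmt1 in every library. The ratio of their TPM was 4.04 to 6.93 in DMSO, 9.43 to 14.7 in Podofilox, 7.55 to 11.0 in AEG 3482 and 7.04 to 9.56 in Cardamonin. The log2 differences from DMSO were 1.20, 0.80 and 0.70 (adjusted exact permutation p = 0.0293 for each). In DMSO Aldh1l2 stood far below Aldh1l1, with a ratio of 0.138 to 0.234, and in Podofilox it exceeded it, at 1.47 to 1.78, so that the pair changed order in all 3 libraries. The log2 difference was 2.82 in Podofilox and 1.78 in Cardamonin, where the ratio was 0.592 to 0.889 (adjusted exact permutation p = 0.0293 for both). Smaller rises passed in AEG 3482 (0.81) and Clofilium tosylate (0.43), and falls in Diphenyleneiodonium Cl (-0.46), each with 1 library inside the DMSO range (adjusted exact permutation p = 0.0476 for each). In Dihydrorotenone it fell by 0.45 with no overlap on that scale (adjusted exact permutation p = 0.0293). With a pseudocount of 0.1 these last 4 no longer passed, with adjusted exact permutation p-values of 0.0508, 0.0508, 0.0714 and 0.0508. In AEG 3482 Aldh1l2 was not higher (mean 2.13 TPM against 2.56 in DMSO), and Aldh1l1 was lower (7.27 against 15.4). In Clofilium tosylate Aldh1l2 was higher (log2 fold change 0.61). In Diphenyleneiodonium Cl Aldh1l1 was higher (0.37) and Aldh1l2 did not pass (-0.08). In Dihydrorotenone neither gene passed (Aldh1l2 -0.20, Aldh1l1 0.25).

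Compounds were compared directly with each other in the same limma fit, over 28 pairs and 10 members, and 163 of the 280 contrasts passed (58.2%). Over all tested genes the share per pair was 0.623% to 67.1%, and 38.7% of all these tests passed. Mthfd2 separated the most pairs, 26 of 28, followed by Psat1 with 22, Shmt2 with 20, Aldh1l2 with 19, Phgdh with 18 and Mthfd1l with 17. Psph and Aldh1l1 separated 15 each, Shmt1 6 and Mthfd1 5.

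Antimycin A and Dihydrorotenone, inhibitors of complex III and complex I of the respiratory chain, differed in 5 members, where 15.5% of all genes passed. The difference was 2.16 for Mthfd2 (limma adjusted p = 1.76e-09), 1.20 for Phgdh (3.53e-08), 0.93 for Psat1 (2.25e-06), 0.68 for Aldh1l2 (0.00214) and 0.35 for Shmt2 (0.0144), all on the log2 scale and all higher in Antimycin A, as 11.6% of all genes were. Doses are not given, so these are not comparisons at matched dose. Antimycin A and Clofilium tosylate differed in 0 of 10 members, with no unadjusted limma p under 0.05 and 5.21% of all genes past the threshold. The 95% interval of that difference was -0.29 to 0.17 for Phgdh, -0.24 to 0.24 for Psat1 and -0.36 to 0.33 for Mthfd2.

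Cardamonin and AEG 3482 differed in 8 members, where 55.3% of genes passed. Phgdh was higher in Cardamonin by 1.57 on the log2 scale (limma adjusted p = 1.18e-11), Mthfd2 by 1.37 (1.30e-07), Mthfd1l by 1.10 (2.54e-10), Psat1 by 0.96 (9.96e-08) and Aldh1l2 by 0.84 (3.05e-05). Mthfd1 and Aldh1l1 did not separate them, with differences of -0.04 and -0.13. Cardamonin and Podofilox differed in 7 members, where 57.8% of genes passed, and in both directions. Mthfd1l was higher in Cardamonin by 1.24 (limma adjusted p = 1.46e-11) and Psph by 0.68 (1.46e-07), whereas Aldh1l2 was higher in Podofilox by 1.32 (2.66e-08). Phgdh did not separate the pair, with a difference of -0.01 and a 95% interval of -0.24 to 0.22. Clofilium tosylate and BerberineA differed in 5 members where only 2.81% of all genes passed, and all 5 were higher in Clofilium tosylate, as 1.18% of all genes were: Mthfd2 by 1.48, Phgdh by 0.95, Psat1 by 0.69, Aldh1l2 by 0.64 and Shmt2 by 0.37 (limma adjusted p from 3.37e-06 to 0.0349).

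Other genes of the pathway were read from a list of 38, of which 31 were expressed enough to test, and they did not move as a block. Cardamonin changed 23 of the 31 (12 higher, 11 lower), or 74.2% beside 70.3% of all genes, AEG 3482 20 (10 and 10), or 64.5% beside 68.1%, and Antimycin A 11 (4 and 7), or 35.5% beside 37.3%. Podofilox changed 11 (6 and 5; 35.5% beside 46.2%), Clofilium tosylate 7 (3 and 4; 22.6% beside 23.4%) and Diphenyleneiodonium Cl 7 (1 and 6; 22.6% beside 25.7%). Dihydrorotenone changed 6, all lower (19.4% beside 14.4%), and BerberineA 2 (1 and 1; 6.45% beside 21.7%). The medians over the 31 genes were between -0.08 and 0.05 on the log2 scale in all 8 compounds. Gldc, the decarboxylase of the glycine cleavage system, Ftcd, Folr1, Mat1a, Bhmt, Bhmt2 and Gnmt were too low to test.

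**Figure D4:**
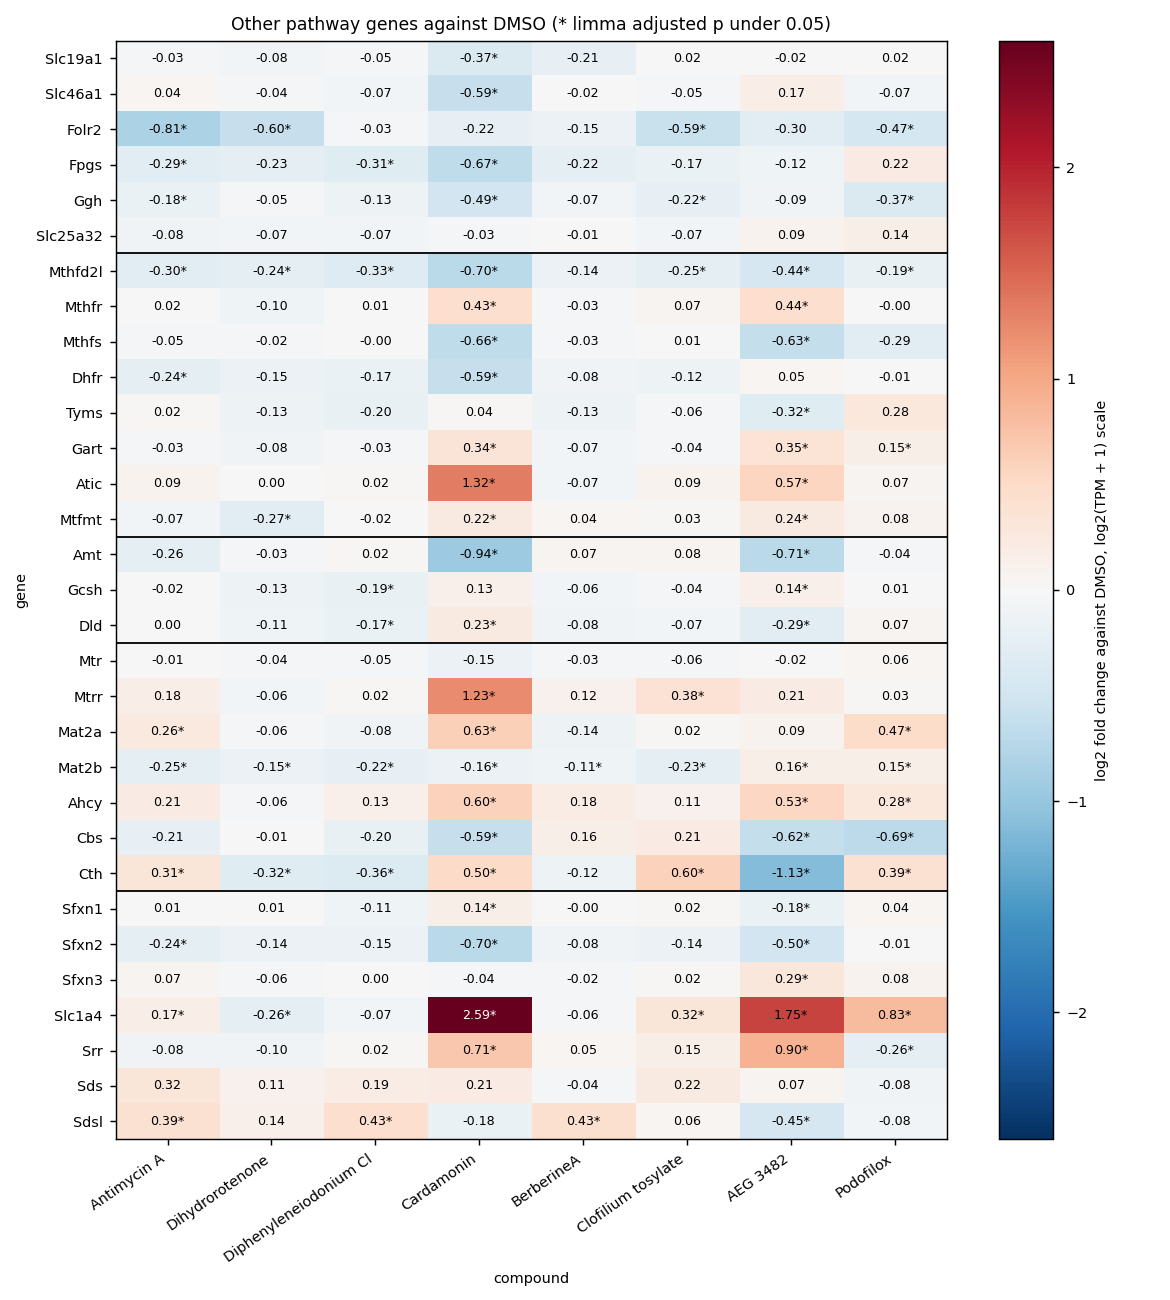
Log2 fold change against DMSO of the 31 tested other pathway genes (rows, in blocks of folate uptake and retention, other folate enzymes, glycine cleavage, methionine cycle and transsulfuration, and serine transport and use) in each compound (columns), with * for a limma adjusted p under 0.05. Slc1a4 in Cardamonin, at 2.59, is the largest value, and Mthfd2l is negative in all 8 columns.

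Slc1a4, which carries serine and other neutral amino acids across the plasma membrane, rose most in this list. It held 12.3 to 14.9 TPM in DMSO, 82.7, 81.8 and 90.4 TPM in Cardamonin, 47.0, 47.8 and 45.9 in AEG 3482 and 24.8, 24.8 and 23.4 in Podofilox. The rises were 6.03-fold, 3.36-fold and 1.78-fold, with limma adjusted p-values of 6.16e-23, 2.09e-19 and 2.92e-12. Antimycin A and Clofilium tosylate also raised Slc1a4, by 0.17 and 0.32 on the log2 scale, and it fell in Dihydrorotenone (-0.26, limma adjusted p = 0.0015). Srr, the serine racemase, rose in AEG 3482 (1.87-fold, limma adjusted p = 3.04e-11) and Cardamonin (1.64-fold, 1.84e-09) and fell in Podofilox (-0.26, 0.00397). Mthfd2l, the second mitochondrial enzyme with the activity of MTHFD2, went the opposite way to Mthfd2 in 5 compounds. It was at 12.3 to 14.4 TPM in DMSO and 7.49, 8.50 and 6.87 TPM in Cardamonin, and it fell in 7 of 8 compounds by 0.19 to 0.70 on the log2 scale (limma adjusted p from 1.64e-10 to 0.0119). BerberineA was the exception (-0.14, limma adjusted p = 0.102). Mtfmt, which uses formyl-tetrahydrofolate to formylate the initiator tRNA of mitochondria, fell in Dihydrorotenone (-0.27, limma adjusted p = 0.00645) and rose in Cardamonin and AEG 3482 (0.22 and 0.24, 0.00438 and 0.00309).

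Atic, which takes formyl-tetrahydrofolate into purines, rose 2.50-fold in Cardamonin (98.4, 94.8 and 107 TPM against 37.8 to 40.5 in DMSO, limma adjusted p = 5.15e-20) and 1.48-fold in AEG 3482 (2.17e-12), and it did not pass in the other 6. The summed proliferation markers, 16 genes listed, were 226 to 248 TPM in Cardamonin, 207 to 221 in Antimycin A, 164 to 172 in Podofilox and 162 to 177 in DMSO. The sums hide unlike members. In Cardamonin 3 of the 14 tested markers were higher and 7 lower, with Pcna at a mean of 107 TPM against 49.0 in DMSO and Mcm7 at 77.4 against 26.0, but Cdk1 at 9.54 against 31.6 and Rrm1 at 11.0 against 19.3 (genes picked after their values were seen). In Antimycin A 6 were higher and 0 lower, and in Podofilox 4 and 6. The part of these markers in the changes was not tested. Cth, which makes cysteine from cystathionine, rose in Clofilium tosylate (1.51-fold, limma adjusted p = 0.000103), Cardamonin (1.42-fold, 0.000111), Podofilox (1.31-fold, 0.00299) and Antimycin A (1.24-fold, 0.0187). It fell in Dihydrorotenone (-0.32, limma adjusted p = 0.0395), in Diphenyleneiodonium Cl (-0.36, 0.0108) and in AEG 3482, where it lay at 3.45, 2.92 and 4.19 TPM against 7.89 to 10.3 in DMSO (-1.13, 4.80e-10). Cbs, the enzyme before it, fell in Podofilox (-0.69, limma adjusted p = 0.00024), AEG 3482 (-0.62, 0.000347) and Cardamonin (-0.59, 0.000576). Amt, the aminomethyltransferase of glycine cleavage, fell in Cardamonin (-0.94, limma adjusted p = 2.46e-06) and AEG 3482 (-0.71, 0.000125). Mat2a, which makes S-adenosylmethionine, rose in Cardamonin (0.63, limma adjusted p = 1.34e-10), Podofilox (0.47, 8.43e-08) and Antimycin A (0.26, 0.000455). Mtrr, which reactivates methionine synthase, rose in Cardamonin (1.23, limma adjusted p = 1.28e-09) and Clofilium tosylate (0.38, 0.0228). Folr2, a folate receptor with a mean of 1.56 ± 0.32 TPM (SD, n = 6) in DMSO, fell in Antimycin A (-0.81, limma adjusted p = 0.000631), Dihydrorotenone (-0.60, 0.0226), Clofilium tosylate (-0.59, 0.0164) and Podofilox (-0.47, 0.0331).

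Among themselves, the members formed a tight set and a loose one over the 9 group means. Pearson's r was 0.98 between Psat1 and Shmt2, 0.96 between Psat1 and Mthfd2 and 0.92 between Shmt2 and Mthfd2. Psph went with Mthfd1l (0.94), and Aldh1l1 was opposed to Mthfd1l (-0.90). Phgdh followed Mthfd2 (0.82) more closely than Psat1 (0.68), the next enzyme of its own pathway. Shmt1 and Mthfd1 had values from -0.72 to 0.48 with the other members. These values are descriptions over 9 points, 1 of them DMSO, and all members were measured in the same libraries.

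By the same measure, among 3511 other protein-coding genes that span at least 1 on the log2 scale, the genes nearest to Mthfd2 were Chac1 (0.99), Asns (0.98) and Atf5 (0.96). Nearest to Psat1 were Chac1 (0.98), Eprs (0.98) and Slc7a5 (0.97), and to Shmt2 Arhgef2 (0.98), Atf4 (0.97) and Nkain1 (0.97). Phgdh had looser neighbours in Adm2, Cox6a2 and Cth (0.92, 0.91 and 0.91). Their DMSO means were 1.18, 0.0934 and 8.85 TPM, so Adm2 and Cox6a2 were low there. Mthfd1l lay nearest to Stip1, Fgfr1 and Slc7a11 (0.99 each), and Aldh1l2 to Cd14 (0.97), Mmp10 (0.95) and Spink5 (0.95). Aldh1l1 lay nearest to Iigp1, Ifi47 and Gbp8 (0.99 each), of which Gbp8 was low in DMSO, with a mean of 0.781 TPM. Atf4 itself had means of 134 TPM in DMSO, 299 in Podofilox, 288 in Cardamonin, 212 in Antimycin A, 188 in AEG 3482 and 183 in Clofilium tosylate, and it rose in these 5 compounds (limma adjusted p from 1.19e-17 to 2.92e-08). Mthfd2, Psat1 and Shmt2 rose in those 5 as well. Phgdh rose in 4 of them and fell in AEG 3482 (log2 fold change -0.44, limma adjusted p = 0.000271). In the other 3 compounds Atf4 did not pass, at 127 to 128 TPM. Among these, Mthfd2 fell in Dihydrorotenone (-0.54) and Diphenyleneiodonium Cl (-0.61), and Psat1 fell in Diphenyleneiodonium Cl (-0.31).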

How the data were processed

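Expression was read from a table of TPM that the authors deposited for all 30 libraries. Per the labels, RNAzol served for extraction and ribosomal RNA was removed. Per the series text the authors quantified transcripts with kallisto and summed them with tximport, and the submitters' processing notes list kallisto 0.43.1, FastQC and the mm10 build. The transcript index and any use of strand are not given in the sources used here, so members that overlap another gene, such as Shmt2 with Ndufa4l2, Shmt1 with Smcr8 and Aldh1l2 with D10Wsu102e, carry that doubt. Listed genes summed to 927024 to 937134 TPM per library, depth is unknown, and no counting interval is given.

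Identifiers were matched to GENCODE M21 (29505 of 29861), and coordinates are 1-based in GRCm38. Groups follow the agent label. All 6 libraries labelled DMSO were used, although the series text mentions 5. After a filter that asked for 1 TPM or more in 3 or more libraries, log2(TPM + 1) values were formed and limma 3.58.1 in R 4.3.3 was fitted to all 30 libraries with 1 mean per group and an intensity trend. P-values were adjusted by Benjamini-Hochberg over the 13644 genes within a comparison. A fold change on this scale understates the change of low genes. The fit was tested on simulated data. The members and all lists were chosen with earlier results of these data known.

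All members are named, and Atf4 as a reference. Of the other pathway genes, those named are the 2 largest rises and 2 largest falls per compound among genes past the threshold with every treated library outside the DMSO range. Like genes are the 3 with the highest correlation for members spanning at least 1 on the log2 scale. Alternatives covered the pseudocount (0.1 and 0.5), the filter, 3 scalings, the trend, a replicate block, each compound fitted with DMSO alone and each library left out. Chosen after seeing the data were the sum of Phgdh with genes sharing its 31-mers, a fit on protein-coding genes alone and the CCAAT motif.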

Additional observations from a re-analysis of the deposited data

Results flagged for a closer look

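Of 14 checks of the 6 DMSO libraries (the 10 members and the 4 ratios), 1 found a library far from the others. The Aldh1l2 to Aldh1l1 log2 ratio of DMSO replicate 3 was -1.83, and the next highest DMSO library was at -2.19. The gap was 0.632 of the group's range, above Dixon's critical value for 6 samples. Chance flags about 1 in 20 such groups. Without DMSO replicate 3, the ratio in Podofilox and Cardamonin still passed.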

How the results depend on the processing

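Of 1592 alternative values for the members against DMSO, 1562 stayed on their side of the threshold, 16 lost the call and 14 gained it. No called change reversed. Some values that did not pass changed sign, as for Psat1 in BerberineA, which ranged from -0.11 to 0.12 on the log2 scale. Of the 40 member calls, 32 held under every alternative run. Of 455 values for the other named genes, 430 were unchanged in call and 25 lost it. The count of direct contrasts was 139 to 165 against 163. In the other counts the small ones moved. With the compound and DMSO fitted alone, Dihydrorotenone changed 1 member (2 in the joint fit), 2 other pathway genes (6) and 898 of all genes (1963), and BerberineA changed 0 other pathway genes (2). BerberineA changed 1 other pathway gene with no filter, 1 with a mean of at least 5 TPM and 4 under quantile normalization. With a pseudocount of 0.1 the Aldh1l2 to Aldh1l1 difference was -0.55 in Dihydrorotenone, 0.83 in AEG 3482, 0.59 in Clofilium tosylate and -0.50 in Diphenyleneiodonium Cl, none passing.

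Leaving out 1 library at a time gave 7 to 11 other pathway genes in Antimycin A, 1 to 2 members and 3 to 7 other pathway genes in Dihydrorotenone, 1 to 3 members in Diphenyleneiodonium Cl and 0 to 2 other pathway genes in BerberineA. All genes called for Dihydrorotenone fell to 1233 with replicate 1 left out and 1266 with replicate 2 left out. The ratio difference ranged from 0.58 to 0.78 for Shmt2 to Shmt1 in Cardamonin and from 0.84 to 1.27 for Mthfd2 to Mthfd1 in AEG 3482, which passed without DMSO replicate 2 (1.20, adjusted exact permutation p = 0.044). For Aldh1l2 to Aldh1l1 it ranged from -0.61 to -0.36 in Diphenyleneiodonium Cl, 0.33 to 0.51 in Clofilium tosylate and 0.68 to 1.05 in AEG 3482. The adjusted exact permutation p reached at most 0.127 in these 5. With 2 treated libraries, or with 3 pairs whose smallest p is 0.25, the permutation test could not pass, so those values were compared with the spread alone.

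Same-numbered libraries of a compound and DMSO showed no large common deviation (24 pairs, r from -0.05 to 0.12, 2 over 0.1). A low correlation cannot exclude that same-numbered samples were paired. With the replicate block 1 member passed in Dihydrorotenone and 0 in BerberineA. The cause of these changes was not tested. No scaling moved the median of all genes by over 0.1 on the log2 scale. Depth is unknown, so precision at low TPM, as for Aldh1l2 and Shmt1, rests on the spread between libraries.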
